A study of Homo sapiens with 12 samples.

Results

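The ERK feedback genes *DUSP4*, *DUSP5*, *DUSP6*, *SPRY1*, *SPRY2*, *SPRY4*, *SPRED1*, *SPRED2*, *ETV4* and *ETV5* were read from a table of raw RNA-seq counts for 26485 gene symbols. They were chosen by name, with earlier results of these data known. All 10 were among the 17176 genes that passed the filter on low counts. The cells were HEK293, a human line derived from embryonic kidney, with the genotype WT. They received 1 µg of a plasmid with the CMV promoter that expressed PEG10 gag-pol, PEG10 gag, PEG10 NC or, as control, LifeAct-Dendra2, a fluorescent label of actin, and were harvested after 48 hr. Each construct had 3 replicates, taken from 3 passages of the line, which gave 12 libraries. *PEG10* is a gene of retrotransposon origin whose transcript encodes a shorter gag protein and, through a ribosomal frameshift, a longer gag-pol protein with a protease. NC is the nucleocapsid fragment of gag. The transfections were transient, in a single line that also expresses its own *PEG10*, so each library mixes cells that took up plasmid with cells that did not, and fewer responding cells cannot be told apart from a smaller response per cell.

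The kinase ERK is the last step of the RAS, RAF and MEK cascade below receptor tyrosine kinases such as the FGF receptors. Active ERK induces genes whose products restrain it, and their transcripts are widely read as a measure of ERK output. DUSP4, DUSP5 and DUSP6 are phosphatases that remove the activating phosphates from ERK, DUSP4 and DUSP5 in the nucleus and DUSP6 in the cytoplasm. The Sprouty (SPRY) and SPRED proteins act above ERK, at the steps that activate RAS and RAF, and SPRED proteins bring the RAS inactivator neurofibromin to the membrane. ETV4 and ETV5 are ETS transcription factors induced by ERK signaling, repressed by the protein Capicua (CIC) and degraded by way of the ubiquitin ligase COP1.

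Libraries held 30625725 to 45316749 counts. *PEG10* had 7817 to 14243 counts in control, 98420 to 132613 with NC, 1437939 to 2370308 with gag and 1267102 to 2815833 with gag-pol. These counts are not scaled by length. The NC insert is much shorter than that of gag, and that of gag-pol is longer, so they do not rank the constructs by expression. The share of *PEG10* in a library was 7.35%, 3.48% and 2.80% in gag-pol replicates 1, 2 and 3. All 7 markers of HEK293 cells were detected in every library, with *NEFM* lowest at 41 to 119 counts. Of 6 markers of other cell types, *PTPRC*, *HBB* and *DCN* were at 0 to 6 counts, whereas *COL1A1* was at 644 to 1498 and fell with NC (-0.55 on the log2 scale, adjusted p = 0.0224). *ALB* had 24 to 50 counts in control and 24 to 38 with gag, beside 6 to 17 with gag-pol (-2.09, adjusted p = 0.0127) and 12 to 15 with NC (-1.44, adjusted p = 0.0668). Of the HEK293 markers, *NEFL* rose with gag-pol and NC (0.56 and 0.75, adjusted p = 0.00868 and 0.00243), *LHX1* with gag-pol (0.55, adjusted p = 0.0359) and *VIM* with NC (0.36, adjusted p = 0.00969). The sum of the 6 markers of other cell types was 24.6 to 45.9 CPM (counts scaled by library total) in control. It was 20.1 to 28.1 in gag-pol libraries, 23.7 to 26.6 in gag libraries and 16.1 to 25.4 in NC libraries, and the part of these markers in the results was not tested.

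With gag-pol, *DUSP4*, *DUSP5*, *SPRY1* and *SPRY2* rose above control by 1.32-fold to 1.46-fold, and no member fell. With gag, no member passed the test. With NC, *DUSP4* rose and *ETV5* fell, and all 10 members had lower fitted levels than with gag-pol, although none of these differences passed the test. Each adjusted p comes from edgeR's quasi-likelihood test, fitted with terms for construct and replicate number and adjusted over all 17176 genes by the Benjamini-Hochberg method. A gene is called changed where it is below 0.05. With the replicate number left out of the model, 0 members were called in any comparison between constructs, and 0 to 3 of all genes were. Levels are normalized counts, that is counts scaled to the mean library total, and fold changes are on the log2 scale with their standard error (SE).

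**Figure D1:**
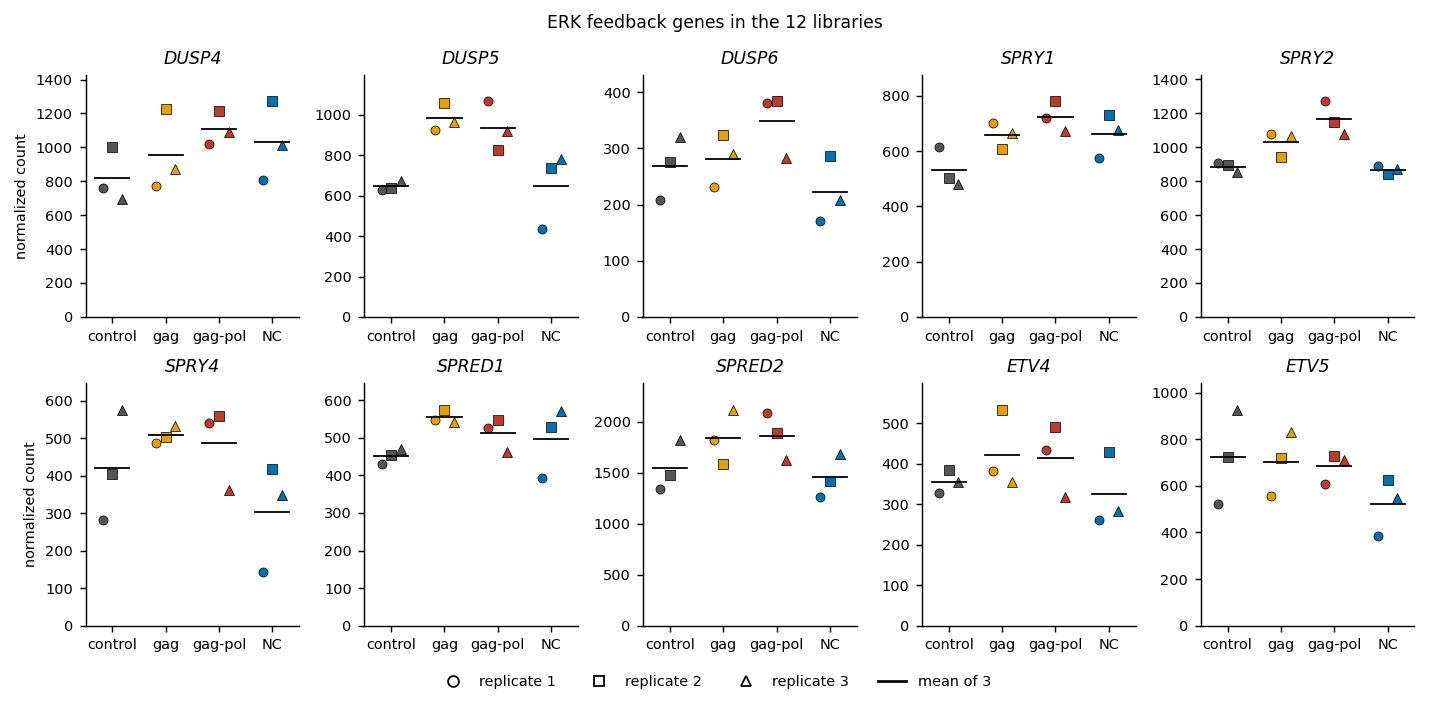
Normalized counts (y axis, linear from 0) of the 10 ERK feedback genes by construct (x axis); circles, squares and triangles are replicates 1, 2 and 3 and bars are the mean of 3. The gag-pol libraries lie above all control libraries for *DUSP4*, *DUSP5*, *SPRY1* and *SPRY2*, and NC replicate 1 is the lowest of the 12 libraries for 7 of the 10 genes.

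Among the phosphatases, *DUSP4* (chr8:29333064-29350684, minus strand, GRCh38) had normalized counts of 758, 999 and 695 in control replicates 1, 2 and 3, 1020.3, 1217 and 1091 with gag-pol, 771, 1225 and 873 with gag, and 807, 1271 and 1014 with NC. Every gag-pol library was above every control library, and in all 4 groups replicate 2 was the highest. Its log2 fold change against control was 0.45 (SE 0.107, adjusted p = 0.0083) with gag-pol and 0.33 (SE 0.107, adjusted p = 0.0498) with NC, and with gag it was 0.22 (adjusted p = 0.383). The gag-pol call was lost on leaving out control replicate 3 (adjusted p = 0.0657), gag-pol replicate 1 (adjusted p = 0.0640) or, in all groups, replicate 1 or replicate 3 (adjusted p = 0.0651 and 0.101). The NC call, just below the threshold, was lost without any of control replicates 2 and 3, gag-pol replicate 1, the 3 gag replicates and the 3 NC replicates (adjusted p = 0.0509 to 0.273), without any of the 3 replicate numbers (adjusted p = 0.0792 to 0.294), and under most other settings.

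*DUSP5* (chr10:110497907-110511533, plus strand) had 629, 639.8 and 671 normalized counts in control, 1067, 824 and 918 with gag-pol, 926, 1060.4 and 966 with gag, and 436, 735 and 780.1 with NC. The gag-pol and gag libraries all exceeded the 3 control libraries, which lay close together, whereas NC ran from below to above them. The log2 fold change against control was 0.54 (SE 0.159, adjusted p = 0.0368) with gag-pol and 0.61 (SE 0.159, adjusted p = 0.0814) with gag, so the larger estimate was the uncalled one. P-values were adjusted within each comparison, and 1942 of 17176 genes were called with gag-pol but 186 with gag. The 2 calls therefore do not show a smaller response of *DUSP5* to gag. DESeq2 called *DUSP5* with gag (adjusted p = 0.0211), as did the fits with no filter on low counts and with the compared groups alone (adjusted p = 0.0203 and 0.00385). NC gave -0.00475 (95% interval -0.34 to 0.33) against control, 0.24 without NC replicate 1, and *DUSP5* was lower with NC than with gag, by -0.61 (SE 0.159, adjusted p = 0.0156). The gag-pol call was lost without any of the 3 control replicates, gag-pol replicates 1 and 3 and gag replicate 1 (adjusted p = 0.0573 to 0.222), and without replicate 1 or replicate 3 of all groups (adjusted p = 0.116 and 0.213). The lower level with NC than with gag lost its call without NC replicate 1 (-0.37, adjusted p = 0.0852), gag replicate 1 or gag replicate 2 (adjusted p = 0.0756 and 0.0737), and without replicate 1 or replicate 3 of all groups (adjusted p = 0.128 and 0.0548).

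*DUSP6* (chr12:89347235-89352501, minus strand), the ERK-selective phosphatase of the cytoplasm, had 209, 275 and 319 normalized counts in control, 381, 383 and 282 with gag-pol, 231, 323 and 290.2 with gag, and 171, 286 and 208 with NC. Replicates 1 and 2 with gag-pol stood above all other libraries, and gag-pol replicate 3 lay within the control range. The 95% interval of its log2 fold change with gag-pol ran from 0.02 to 0.77 around 0.40, with an adjusted p of 0.157. It differed among the 4 constructs (adjusted p = 0.0491). NC was below gag-pol in all 3 replicates, by -1.15, -0.42 and -0.44 on the log2 scale, and the fitted difference of -0.68 (SE 0.182) had an unadjusted p of 0.00109 and an adjusted p of 0.158. It was called without gag-pol replicate 3, without replicate 3 of all groups and with no filter on low counts (adjusted p = 0.0173, 0.0436 and 0.0303).

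Among the inhibitors above ERK, *SPRY2* (chr13:80335976-80341126, minus strand) had 904, 896 and 853 normalized counts in control, 1269, 1150.2 and 1079.8 with gag-pol, 1079.6, 944 and 1064 with gag, and 886, 839 and 868 with NC. Its 3 control and 3 NC libraries covered the same narrow range, and the gag libraries lay above both. The gag-pol libraries reached higher, but gag-pol replicate 3 was level with gag replicate 1. The fitted difference of gag-pol from gag, 0.18, was not called (adjusted p = 0.261). The log2 fold change with gag-pol was 0.40 (SE 0.0958, adjusted p = 0.0096), and the call was lost without gag-pol replicate 1 (adjusted p = 0.0663) and without replicate 1 of all groups (adjusted p = 0.154). With gag it was 0.22 (adjusted p = 0.315) and with NC -0.03 (95% interval -0.23 to 0.17). *SPRY2* had the lowest p of the 10 genes in the test of the 4 constructs together (adjusted p = 0.00671). NC was 0.43 below gag-pol on the log2 scale (fitted -0.43, SE 0.0959, adjusted p = 0.0604), which DESeq2 called (adjusted p = 0.00389), as did the fit without control replicate 3 (adjusted p = 0.0381), that without gag-pol replicate 3 (adjusted p = 0.0186), that without replicate 3 of all groups (adjusted p = 0.0239) and that with no filter on low counts (adjusted p = 0.0212).

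*SPRY1* (chr4:123396795-123403760, plus strand) had 614, 503 and 482 normalized counts in control, 720.1, 779 and 671 with gag-pol, 701, 609 and 666 with gag, and 573, 732 and 675 with NC. Only control replicate 1 among the controls reached into the gag and NC ranges, and every gag-pol library was above it. *SPRY1* rose with gag-pol by 0.44 (SE 0.126, adjusted p = 0.0257). The call was lost without control replicates 2 or 3 or gag-pol replicates 1 or 2 (adjusted p = 0.0702 to 0.122), without any of the 3 replicate numbers (adjusted p = 0.0548 to 0.162) and with the gag-pol and control libraries alone (adjusted p = 0.0530). Gag and NC gave similar uncalled estimates of 0.31 (adjusted p = 0.274 and 0.113), and the difference of NC from gag was 0.01 (95% interval -0.26 to 0.27).

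RefSeq promoter windows, each 250 bases before and 50 bases from a transcription start on, were matched for 6 of the 10 members. *DUSP4*, *DUSP5*, *ETV4* and *ETV5* had no entry. The windows of *SPRY2* (chr13:80341077-80341376, minus strand, GRCh38.p14) and *DUSP6* (chr12:89352452-89352751, minus strand, GRCh38.p14) are shown because these 2 had the lowest p among the constructs of the members with a window. Capitals mark CCGGAA, the only ETS pattern searched, on either strand.
SPRY2: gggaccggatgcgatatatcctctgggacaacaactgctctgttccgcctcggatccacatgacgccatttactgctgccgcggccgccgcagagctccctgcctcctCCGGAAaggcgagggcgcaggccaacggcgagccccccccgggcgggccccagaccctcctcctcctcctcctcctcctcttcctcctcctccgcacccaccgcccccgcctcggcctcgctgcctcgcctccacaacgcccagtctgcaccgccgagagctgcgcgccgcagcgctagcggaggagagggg
DUSP6: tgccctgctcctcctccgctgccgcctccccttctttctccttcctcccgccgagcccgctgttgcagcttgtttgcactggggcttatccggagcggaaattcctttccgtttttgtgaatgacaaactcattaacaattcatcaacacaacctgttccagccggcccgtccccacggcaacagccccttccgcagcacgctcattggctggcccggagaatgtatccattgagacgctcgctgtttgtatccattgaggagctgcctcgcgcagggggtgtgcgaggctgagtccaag
CCGGAA is 1 form of the letter pattern read by ETS factors, some of which ERK phosphorylates. Shorter forms such as GGAA, which the *DUSP6* window does hold, were not counted. *SPRY2* held 1 match to CCGGAA, at position -142 from the start, and *DUSP6* none. CCGGAA was found in 17.2% of 35116 promoter windows, the AP-1 pattern TGANTCA in 7.71%, the CRE TGACGTCA in 1.85%, the Capicua pattern TGAATGAA or TGAATGGA in 2.63% and the CArG box in 1.29%. Matches were taken on either strand, with no overlap of letters between patterns required. Of these patterns, the *SPRY2* window held CCGGAA only and the *DUSP6* window held none. The Capicua pattern was searched only in the letters given, and its 2.63% counts those letters alone. Other forms of it were not searched, so a window without a match is not shown to lack Capicua sites. *SPRY2* has 2 further starts, whose windows held none of these patterns. *SPRY1* and *SPRED2* each have 1 further start, whose window held 1 CCGGAA for *SPRY1*, at position -67, and 2 AP-1 patterns for *SPRED2*.

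*SPRY4* (chr5:142310427-142326455, minus strand) was the most variable member, with 282, 403 and 574 normalized counts in control, 539, 558 and 360.2 with gag-pol, 487, 503 and 533 with gag, and 144, 419 and 347 with NC. The lowest and the highest of these libraries, NC replicate 1 and control replicate 3, were 4.0-fold apart. The SE of its fold changes was accordingly wide, and the log2 estimates against control of 0.26 for gag-pol (95% interval -0.54 to 1.06, adjusted p = 0.686), 0.31 for gag (95% interval -0.48 to 1.10, adjusted p = 0.770) and -0.50 for NC (95% interval -1.30 to 0.31, adjusted p = 0.417) were not called. The gag libraries were the closest together and all above the NC libraries, with NC 0.81 lower on the log2 scale (fitted -0.81, adjusted p = 0.164). Without NC replicate 1 that difference was -0.47.

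*SPRED1* (chr15:38252836-38357249, plus strand) varied least, 1.46-fold over the 12 libraries. It had 429.7, 453 and 471 normalized counts in control, 525, 547 and 463 with gag-pol, 548, 573 and 541 with gag, and 394, 527 and 572 with NC. The gag libraries were all above the controls, and the fitted difference of 0.30 had an adjusted p of 0.321. *SPRED2* (chr2:65310851-65432637, minus strand) had 1346, 1480.1 and 1823 normalized counts in control, 2084, 1891 and 1627 with gag-pol, 1825.5, 1583 and 2116 with gag, and 1263, 1423 and 1685 with NC. Its gag-pol libraries 1 and 2 were above all controls and gag-pol replicate 3 was not. The log2 fold change of *SPRED2* with gag-pol was 0.28 (SE 0.121, adjusted p = 0.136), and without gag-pol replicate 3 it was 0.48 and called (adjusted p = 0.00774), as it was without replicate 3 of all groups (adjusted p = 0.0169). NC was below gag by 0.34 and below gag-pol by 0.37 on the log2 scale (fitted -0.34 and -0.37, adjusted p = 0.0644 and 0.288). The first of these was called in DESeq2 (adjusted p = 0.0453), without gag-pol replicates 1 or 3 (adjusted p = 0.0346 and 0.0089), without replicate 3 of all groups (adjusted p = 0.0337), with no filter on low counts (adjusted p = 0.0258) and with the gag and NC libraries alone (adjusted p = 0.0406). The second was called without gag-pol replicate 3 (-0.57, adjusted p = 0.00268) and without replicate 3 of all groups (adjusted p = 0.0146).

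Of the transcription factors, *ETV5* (chr3:186046314-186110318, minus strand) had 521, 722 and 925 normalized counts in control, 609, 729 and 712 with gag-pol, 556, 717 and 830.4 with gag, and 387, 626 and 549 with NC. In control and gag the level was lowest in replicate 1 and highest in replicate 3, and NC was below control, gag and gag-pol in every replicate. *ETV5* fell with NC by 0.46 on the log2 scale (fitted -0.46, SE 0.126, adjusted p = 0.0210) and was lower than with gag by 0.43 (fitted -0.43, SE 0.126, adjusted p = 0.0214). The difference of NC from gag-pol was -0.41 (adjusted p = 0.240). With gag-pol (-0.05, 95% interval -0.31 to 0.21) and gag (-0.03, 95% interval -0.29 to 0.23) it was not called against control. The fall with NC lost its call without control replicate 3 (-0.33, adjusted p = 0.188), NC replicate 1 (adjusted p = 0.0938) or NC replicate 3 (adjusted p = 0.113), and that from gag without NC replicates 1 or 3 or gag replicates 1 or 3 (adjusted p = 0.0872 to 0.110). Both calls were lost without replicate 1 of all groups (adjusted p = 0.106 and 0.201) and without replicate 3 (adjusted p = 0.205 and 0.0905).

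*ETV4* (chr17:43527844-43579620, minus strand) had 328, 384 and 356 normalized counts in control, 435, 489.7 and 318 with gag-pol, 381, 532 and 354 with gag, and 261, 429.7 and 284 with NC. Replicate 2 was highest in all 4 groups, and the groups overlapped. Its differences from control on the log2 scale were 0.20 for gag-pol (adjusted p = 0.409), 0.22 for gag (adjusted p = 0.555) and -0.16 for NC (adjusted p = 0.541). The annotated span of *ETV4* overlaps *DHX8* on the other strand and that of *ETV5* overlaps *DGKG* on the same strand, and both neighbors are in the count table. The strand setting of the counting, which bears on *ETV4* and *DHX8*, is not given in the sources used here. No strand setting would separate *ETV5* from *DGKG*. Reads in these overlaps therefore cannot be assigned with certainty. The overlaps are of whole gene spans, and whether exons overlap was not examined.

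**Figure D2:**
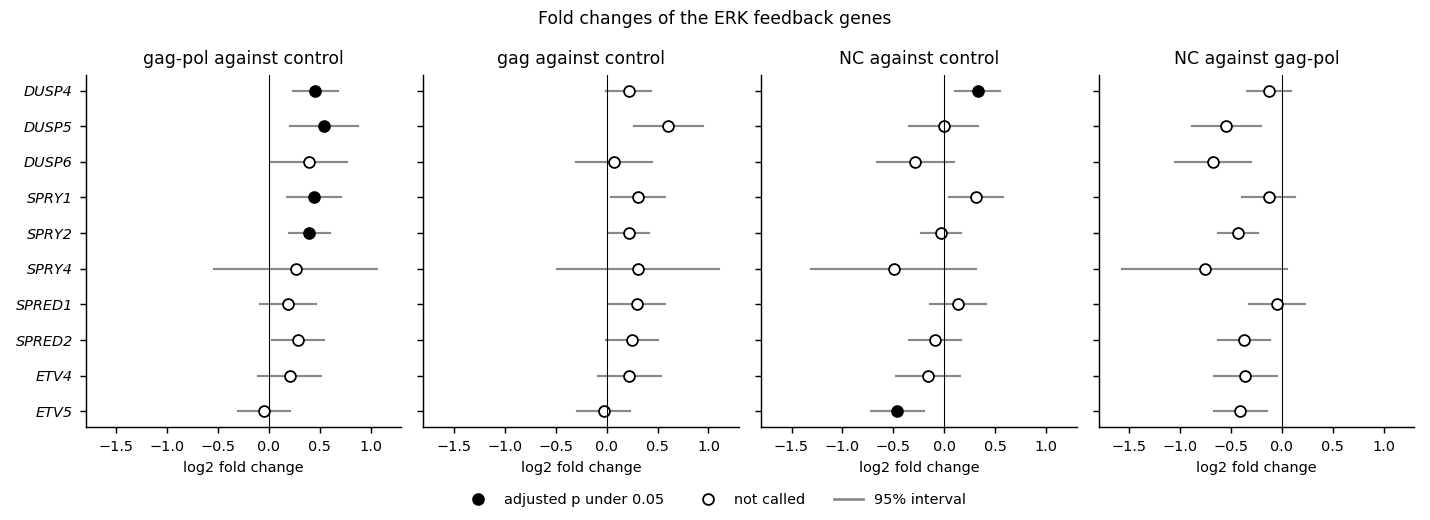
Log2 fold changes (x axis) of the 10 ERK feedback genes (y axis) in 4 comparisons, with 95% intervals as gray lines; filled points have an adjusted p under 0.05 in edgeR's quasi-likelihood test. Filled points are *DUSP4*, *DUSP5*, *SPRY1* and *SPRY2* for gag-pol and *DUSP4* and *ETV5* for NC against control, and all 10 estimates for NC against gag-pol are below 0.

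Gag-pol was compared with control to ask which transcripts respond to the full-length, self-cleaving protein. Of the 10 members, 4 were called higher and 0 lower, where 5.48% of all genes tested were called higher. The median log2 fold change of the members was 0.34, beside -0.00135 over all genes tested, and 9 of the 10 estimates were above 0. Gag-pol libraries lay above all control libraries for 4 members, the same 4 that were called, where 6.74% of all genes did so. The rise was seen in all 3 replicate numbers for these 4 members, where 23.0% of all genes were higher in all 3. In replicates 1 and 2 all 10 members were higher with gag-pol than in the control of the same number, and in replicate 3 the other 6 were lower. Leaving out control replicate 2 left 2 called, leaving out control replicate 3 left 1, and leaving out gag-pol replicate 1 left none. In that order these fits called 1378, 737 and 901 of all genes, beside 1942 in the main fit. Without replicates 1 and 3 of all groups, 0 and 2 members were called, beside 422 and 767 of all genes. Gag-pol replicate 1 was also the library with the largest share of *PEG10* counts, whose part in the result was not tested.

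**Figure D3:**
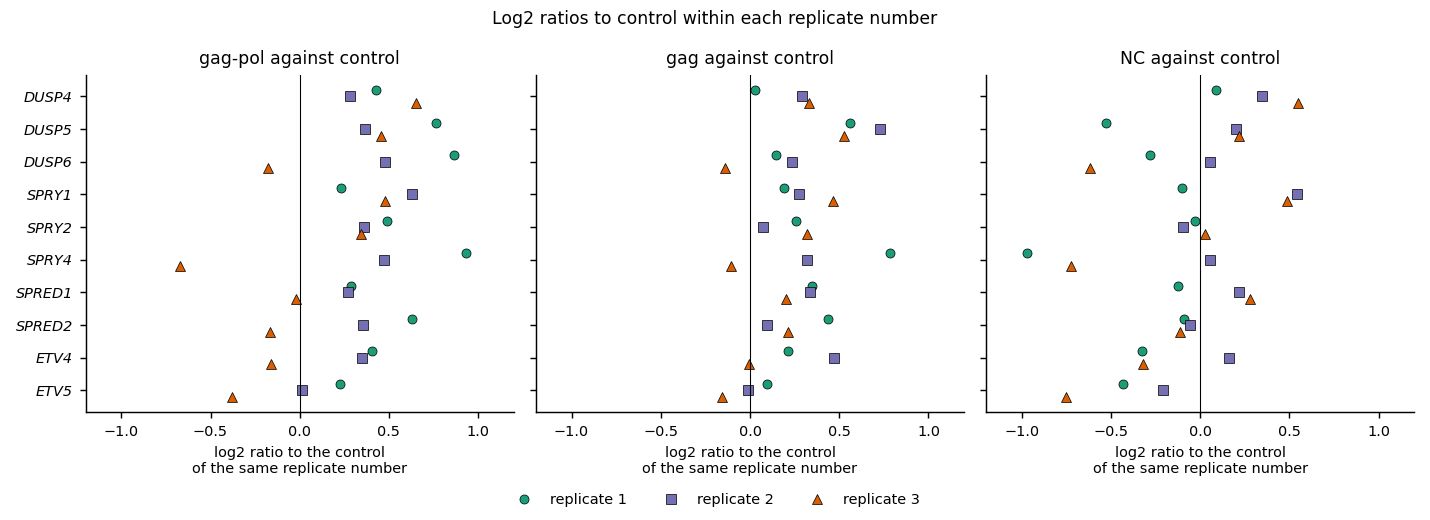
Log2 ratio of normalized counts to the control library of the same replicate number (x axis) for each ERK feedback gene (y axis), with circles, squares and triangles for replicates 1, 2 and 3. With gag-pol, replicates 1 and 2 are right of 0 for all 10 genes and replicate 3 is left of 0 for 6; with NC, replicate 1 is left of 0 for 9.

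Gag, which lacks the protease, gave 0 called members against control, where 1.08% of all genes were called. At an unadjusted p under 0.05, 4 members were higher (*DUSP5*, *SPRY1*, *SPRY2* and *SPRED1*), where 7.60% of all genes were. DESeq2 called 1 member (*DUSP5*), and 438 of 22950 genes. The median log2 fold change was 0.24, and 6 members were higher in all 3 replicate numbers, where 19.4% of all genes were. *DUSP5* was called with an adjusted p of 0.00791, 0.0428 and 0.0253 without NC replicate 1, NC replicate 2 and gag-pol replicate 1. The comparisons with gag-pol, gag and NC share the 3 control libraries, so their fold changes are not independent. In the direct comparison of gag-pol with gag, 0 members were called, where 6.46% of all genes were. At an unadjusted p under 0.05 there was 1 member (*DUSP4*, 0.24), where 4022 of 17176 genes were. DESeq2 called 0 members, and 1560 of 15447 genes. The median of the members was 0.01, and the widest interval among the 4 genes that rose with gag-pol, that of *DUSP5*, was -0.40 to 0.27.

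NC was compared with control to ask what the nucleocapsid fragment does alone. Of the members, 1 rose (*DUSP4*) and 1 fell (*ETV5*), where 11.2% of all genes were called in either direction, and the median log2 fold change was -0.06. Without control replicate 1 the number called was 3, with *SPRY1* added (0.44, adjusted p = 0.0489). It was 1 without control replicate 2, gag-pol replicate 1, NC replicate 2 or any gag replicate, and 0 without control replicate 3, NC replicate 1 or NC replicate 3. The fits with 0 called members called 367, 966 and 823 of all genes in that order, beside 1922 in the main fit. The fit with 3 called members called 1735 of all genes, and those with 1 called 1177 to 1785. Without replicates 1, 2 and 3 of all groups, 0, 1 and 0 members were called, beside 499, 998 and 807 of all genes. NC replicate 1 was the lowest of the 12 libraries for *DUSP5*, *DUSP6*, *SPRY4*, *SPRED1*, *SPRED2*, *ETV4* and *ETV5*, and 9 members were lower there than in control replicate 1. In the other replicate pairs 3 and 5 members were lower than control. Without NC replicate 1 the median of the members was -0.01, with 5 estimates below 0.

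Between NC and gag, 2 members were called lower (*DUSP5* and *ETV5*), where 8.12% of all genes were, and none was called higher. Another 3, *SPRY2*, *SPRED2* and *ETV4*, were lower at an unadjusted p under 0.05, which makes 5 of 10 where 15.1% of all genes were. The median log2 fold change was -0.35, and 7 members were lower with NC in all 3 replicate numbers, where 24.0% of all genes were. The number called was 0 without gag replicate 1 or NC replicate 1, 1 without gag replicates 2 or 3 or NC replicate 3, and 3 without gag-pol replicates 1 or 3. The fits with 0 called members called 940 and 1354 of all genes in that order, beside 2898 in the main fit. Those with 1 called member called 1658, 1995 and 2261 of all genes, and those with 3 called 2688 and 3351. Without replicates 1, 2 and 3 of all groups, 0, 2 and 1 members were called, beside 342, 1515 and 3419 of all genes.

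Between NC and gag-pol, which differ in all that surrounds the nucleocapsid, 0 members were called, where 0.0873% of all genes (15 genes) were. At an unadjusted p under 0.05, 6 were lower with NC (*DUSP5*, *DUSP6*, *SPRY2*, *SPRED2*, *ETV4* and *ETV5*), where 5.79% of all genes were. DESeq2 called 1 member (*SPRY2*), and 213 of 22950 genes. The median log2 fold change of the members was -0.39, beside 0.02 over all genes tested. In all 3 replicate numbers 6 members were lower with NC, where 14.6% of all genes were, and for 2 members, *DUSP5* and *SPRY2*, the groups did not overlap, where 4.13% of all genes lay below without overlap. Without gag-pol replicate 3, 3 members were called lower (*DUSP6*, -0.86, *SPRY2*, -0.48, and *SPRED2*, -0.57), as were the same 3 without replicate 3 of all groups, and without control replicate 3 only *SPRY2* was. More genes were called in these fits than in the main one, 281 of 17555, 533 of 17150 and 63 of 17466 in that order. Without NC replicate 1 the median was -0.29, with 8 estimates below 0 and none called, where 0 of 17570 genes were.

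The mean of gag-pol and NC was set against the mean of gag and control, since gag-pol releases nucleocapsid by cutting itself and gag does not. In this contrast *DUSP4* was higher by 0.28 (SE 0.0755, adjusted p = 0.00888) and *ETV5* was lower by 0.24 (fitted -0.24, SE 0.0886, adjusted p = 0.0486), and the other 8 were not called, where 24.7% of all genes were. The *ETV5* value came from NC, at -0.46 against control and -0.43 against gag. With gag-pol *ETV5* was at -0.05 and -0.02. *DUSP4* was at 0.33 and 0.11 with NC and at 0.45 and 0.24 with gag-pol. The *ETV5* call was lost on leaving out any of control replicates 2 and 3, gag-pol replicates 2 and 3, the 3 gag replicates and NC replicates 1 and 3 (adjusted p = 0.0529 to 0.171), and without replicate 1 of all groups (adjusted p = 0.106). *SPRY1* was called as higher on leaving out control replicate 1, NC replicate 1 or replicate 1 of all groups (adjusted p = 0.0228, 0.0234 and 0.0365). Without replicate 3 of all groups no member was called, where 2222 of 17150 genes were.

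Among the 4 constructs together, 5 members differed (*SPRY2*, *DUSP5*, *DUSP4*, *ETV5* and *DUSP6*), where 20.6% of all genes did. The number ran from 3 to 6 when any single library was left out, and was 3 without control replicate 2, gag-pol replicate 1, gag replicate 1 or NC replicate 3. In that order the fits with 3 called 2702, 2600, 1973 and 3067 of all genes, beside 3538 in the main fit. The number of members was 0 without replicate 1 of all groups, where 636 of 17313 genes differed. Among the replicate numbers, 3 members differed, *DUSP4* (adjusted p = 0.000301), *ETV5* (adjusted p = 0.000718) and *ETV4* (adjusted p = 0.00646), where 52.8% of all genes did. The mean normalized count of *DUSP4* over the 4 constructs was 839 in replicate 1, 1178 in replicate 2 and 918 in replicate 3, and that of *ETV4* was 351, 459 and 328. *ETV5* instead had means of 518, 699 and 754. *SPRY2* and *SPRY1*, by contrast, had means of 1035, 957 and 966 and of 652, 656 and 624, and their adjusted p among the replicate numbers was 0.464 and 0.790.

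Per length, in RPKM (counts scaled by exon length and library total), the members in control cells fell into 3 levels. *SPRY2* (median 7.42, range 7.06 to 7.49), *SPRED2* (7.15, 6.51 to 8.81) and *DUSP5* (6.71, 6.60 to 7.04) were highest, and *SPRED2* overlapped both of the others. *SPRY1* (3.38, 3.23 to 4.13), *ETV5* (3.33, 2.40 to 4.26), *DUSP4* (2.77, 2.54 to 3.65) and *ETV4* (2.69, 2.48 to 2.91) followed, with each overlapping its neighbors in this order. *DUSP6* (1.90, 1.44 to 2.20), *SPRY4* (1.64, 1.15 to 2.33) and *SPRED1* (1.56, 1.48 to 1.62) were lowest and overlapped as well, and all control values of these 3 were below those of *ETV4*. Raw counts of the members ran from 140 (*SPRY4*, NC replicate 1) to 2069 (*SPRED2*, with gag-pol at its highest).

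The wider pathway was read from 4 gene lists. Of 30 genes of the ERK cascade, from the receptors to the kinases below ERK, 3 rose with gag-pol, none with gag and 4 with NC, and none fell. Over all genes tested, 5.48% rose and 5.83% fell with gag-pol, 0.699% and 0.384% with gag, and 6.04% and 5.15% with NC. The median log2 fold changes of the cascade with gag-pol, gag and NC were -0.03, -0.01 and 0.00243, beside -0.00135, 0.00272 and 0.00400 over all genes tested. The cascade genes called with both gag-pol and NC were the receptors *FGFR1* (0.23 and 0.25, adjusted p = 0.0419 and 0.0294) and *FGFR2* (0.28 and 0.30, adjusted p = 0.0283 and 0.0197) and the ERK-activated kinase gene *RPS6KA2* (0.50 and 0.58, adjusted p = 0.00848 and 0.00479). With gag, *RPS6KA2* was at -0.10 (adjusted p = 0.779). The *FGFR1* call with gag-pol was lost without any of the control or gag-pol replicates, gag replicate 1, NC replicate 1 or any replicate number (adjusted p = 0.0559 to 0.257), and with the compared groups alone or at least 10 counts in every library (adjusted p = 0.118 and 0.0502). Its call with NC was lost without any of the control replicates, NC replicates 1 or 3 or any replicate number (adjusted p = 0.0620 to 0.171). The *FGFR2* call with gag-pol was lost without control replicates 2 or 3, gag-pol replicates 1 or 3 or any replicate number (adjusted p = 0.0647 to 0.161) and with the compared groups alone (adjusted p = 0.0817). That with NC was lost without control replicates 2 or 3, NC replicates 2 or 3 or any replicate number (adjusted p = 0.0592 to 0.135). *RPS6KA2* lost its call with gag-pol without control replicate 3, gag-pol replicate 3 or replicates 1 or 3 of all groups (adjusted p = 0.0597 to 0.148), and with NC without control replicate 3 (adjusted p = 0.0503).

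Of the 10 closest relatives of the members, 9 passed the filter on low counts, and *DUSP2* did not. Of these, 2 rose and 1 fell with gag-pol, 2 rose with gag and 1 fell with NC, where 5.48% of all genes rose and 5.83% fell with gag-pol, 0.699% rose with gag and 5.15% fell with NC. The medians were 0.08, 0.32 and -0.16. *DUSP1*, a nuclear phosphatase of several MAP kinases, had 1601 to 2875 normalized counts in control and 1574 to 2632 in NC libraries, beside 2234 to 2993 in gag-pol and 3029 to 4162 in gag libraries. It rose with gag-pol (0.42, SE 0.120, adjusted p = 0.0310) and with gag (0.80, SE 0.120, adjusted p = 0.00280) and was at -0.01 with NC (95% interval -0.26 to 0.24). The gag-pol call was lost without control replicates 1 or 2, gag-pol replicates 1 or 2 or replicates 1 or 2 of all groups (adjusted p = 0.0520 to 0.222). *DUSP16*, a phosphatase of the stress kinases JNK and p38, rose with gag (0.41, SE 0.0836, adjusted p = 0.0141), and was at 0.05 with gag-pol and -0.16 with NC. Its gag call was lost without control replicates 1 or 2, gag replicate 1 or replicates 1 or 2 of all groups (adjusted p = 0.0626 to 0.913).

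Of 9 other transcripts that respond to ERK, 3 rose with gag-pol and none with gag, while 1 rose and 1 fell with NC, where 5.48%, 0.699% and 6.04% of all genes rose and 5.15% fell with NC. The medians were 0.35, 0.38 and 0.13. *PHLDA1*, an early response gene, rose with gag-pol (0.86, SE 0.157, adjusted p = 0.00164) and with NC (0.93, SE 0.157, adjusted p = 0.00140), and was at 0.43 with gag (adjusted p = 0.210). *FOSL1*, which encodes the AP-1 subunit FRA1, rose with gag-pol (0.70, SE 0.167, adjusted p = 0.00905), and was at 0.63 with gag (adjusted p = 0.0689) and 0.13 with NC (adjusted p = 0.671). Its gag-pol call was lost without control replicate 1, gag-pol replicate 1 or replicate 1 of all groups (adjusted p = 0.0579 to 0.221). With gag it was called without control replicate 3, gag-pol replicates 1 or 3, NC replicate 2 or replicate 3 of all groups, in DESeq2, with no filter and with the compared groups alone (adjusted p = 0.00905 to 0.0487). The immediate early genes *EGR1* and *FOS*, named after their values were seen, had wide intervals in all 3 comparisons, as for *EGR1* with gag (1.03, 95% interval -0.01 to 2.08) and with NC (-0.99, 95% interval -2.06 to 0.09).

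Of 7 regulators of the ETV factors, 1 rose with each construct and 2 fell with NC, where 5.48%, 0.699% and 6.04% of all genes rose and 5.15% fell with NC. The medians were -0.09, 0.03 and 0.02. *TRIB1*, an adaptor of the COP1 ligase, rose with gag-pol (0.87, SE 0.0965, adjusted p = 1.09e-05), gag (0.71, SE 0.0966, adjusted p = 0.00028) and NC (0.39, SE 0.0966, adjusted p = 0.0133). The NC call was lost without control replicates 1 or 3, NC replicates 2 or 3 or replicates 2 or 3 of all groups (adjusted p = 0.0502 to 0.124). Its normalized counts were 1268 to 1741 in control, 2301 to 3598 in gag-pol, 2014 to 3253 in gag and 1784 to 2283 in NC libraries, so all 9 libraries of the 3 constructs were above the controls. *CIC* fell with NC by 0.41 on the log2 scale (fitted -0.41, SE 0.0845, adjusted p = 0.00462), and was at -0.21 with gag-pol (adjusted p = 0.104, called at 0.0485 without control replicate 1) and 0.02 with gag (adjusted p = 0.965). *COP1* is listed in the count table under its older symbol *RFWD2*.

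**Figure D4:**
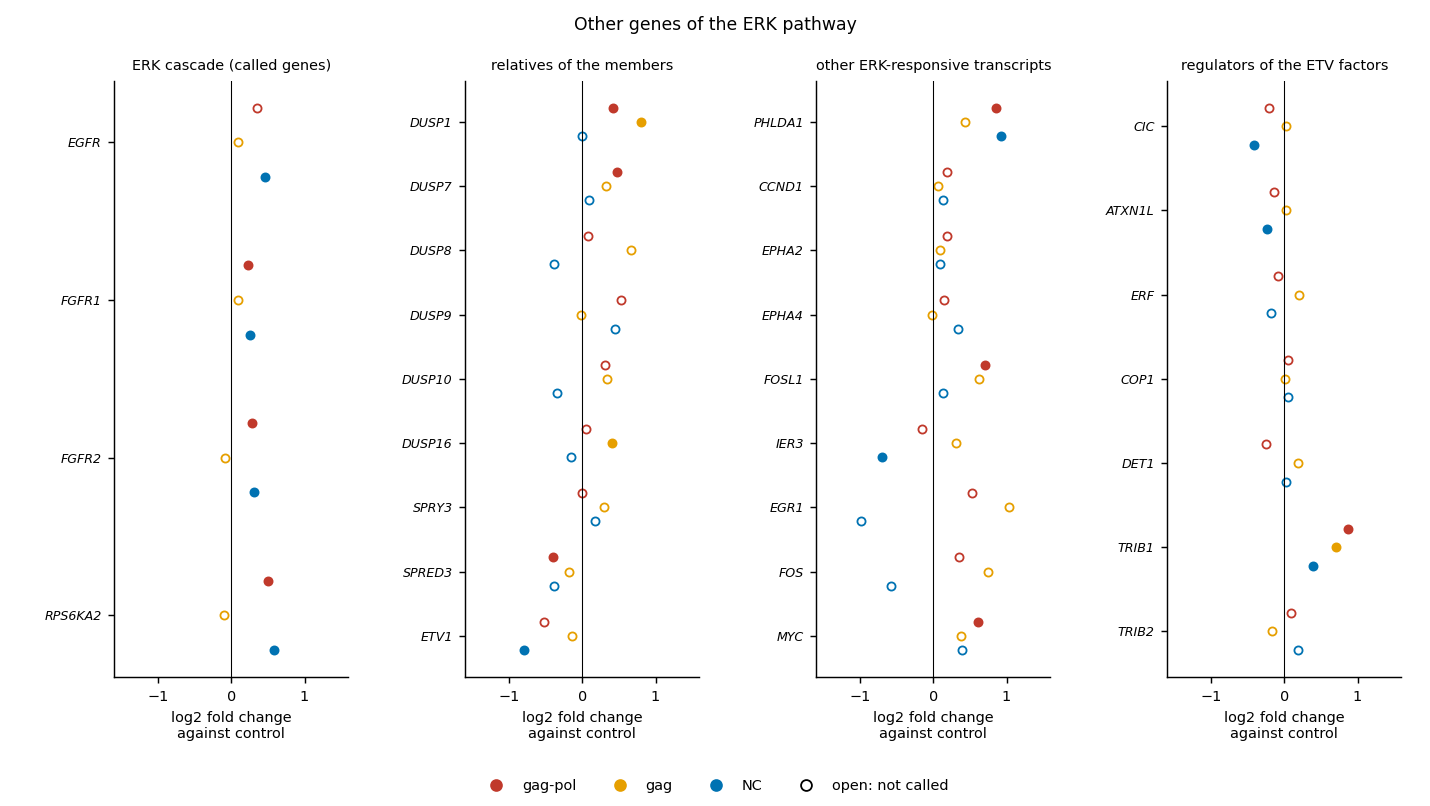
Log2 fold changes against control (x axis) of the genes of 4 ERK pathway lists (y axis), red for gag-pol, orange for gag and blue for NC; filled points have an adjusted p under 0.05. Of the ERK cascade, the genes called with at least 1 construct are shown, with *RPS6KA2* at 0.50 and 0.58 for gag-pol and NC, and *TRIB1* is filled for all 3 constructs.

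For the 3 members with the lowest p among the constructs, the genes with the most similar pattern were found by the root mean square (RMS) difference of centered log2 CPM over the 12 libraries. For *SPRY2*, which had an RMS of 0.187 about its own mean, these were *MED9* (difference 0.0649) and *DUSP7* (0.0889), itself a phosphatase of ERK. For *DUSP5* (RMS 0.359) they were *LRRC8E* (0.149) and *LATS2* (0.154), and for *DUSP4* (RMS 0.284) *ADAP2* (0.0795) and *METRNL* (0.0874). The 12 libraries share 3 passages and 4 constructs, and the pattern of *DUSP4* includes the high level of replicate 2.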

How the data were processed

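Poly(A) RNA of 12 libraries was sequenced as read pairs. According to the paper's methods and the submitters' processing notes, the authors aligned reads to GRCh38.p13 with STAR 2.7.3, sorted them with SAMtools 1.8 and deposited raw counts per gene from featureCounts. Its version, annotation release, strand setting and treatment of multiply mapped reads are not given in the sources used here. No column of another series was present.

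The counts were analysed with edgeR 4.0.16 in R 4.3.3 with TMM factors and edgeR's expression filter (at least 10 counts in enough libraries for the smallest construct group, 15 in total), which kept 99.97% of counts. A robust quasi-likelihood model with construct and replicate number was fitted to all 12 libraries (6 residual degrees of freedom), because the authors modelled harvest and construct and the design names passages. The replicate number was taken to be the passage. After removal of construct means, the 18 pairs of libraries that share a number correlated at 0.138 to 0.539 and the 36 others at -0.498 to 0.0720, so the numbers pair the samples. P-values measure the spread left between libraries of 1 cell line after the terms for construct and replicate number. The spread between passages is taken up by the replicate term. SE is the fold change divided by the square root of F, and 95% intervals use the t quantile. Normalized counts are counts over TMM-scaled library size times the mean library total. Replicates differed beyond counting noise (chi-square per degree of freedom 34.0 to 114), so none was merged.

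Alternatives were DESeq2 1.42.0, RLE factors, *PEG10* left out, no filter, a stricter filter (10 counts or more in each library), no replicate block, the compared groups alone, and each library or replicate number left out. The code was tested on simulated counts. All 10 members are described. Of the 4 pathway lists, genes called in at least 2 of the 3 comparisons with control were named or, where a list had fewer than 2, its 2 genes with the lowest p among constructs. Members, lists and tests were chosen with earlier results of these data known. Gene spans and exon lengths are from GENCODE release 44 (GRCh38), promoters from RefSeq (GRCh38.p14), and older symbols from RefSeq synonyms. Tables and figures were made with Python 3.11.15, pandas 2.3.3 and matplotlib 3.10.9.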

Additional observations from a re-analysis of the deposited data

How the results depend on the processing

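The numbers of members called moved by more than 1.5 times in these cases, and the cause was not tested. Against control, NC had 1 called member in place of 2 with RLE size factors, with *PEG10* left out of the counts, with at least 10 counts in every library and with the libraries of the compared groups alone. In that order these fits called 1906 of 17176, 1880 of 17104, 2016 of 14991 and 2100 of 16426 genes, beside 1922 in the main fit. Gag had 1 in place of 0 with DESeq2, with no filter and with the compared groups alone, where 438 of 22950, 373 of 22950 and 344 of 16609 genes were called. NC against gag-pol had 1 in place of 0 with DESeq2 and 2 with no filter, where 213 and 129 of 22950 genes were called. Without the replicate block, 0 members were called against control with gag-pol or with NC, 0 for NC against gag, 0 in the contrast of gag-pol plus NC with gag plus control, and 0 among the 4 constructs, and *DUSP5* with NC against control turned to 0.00821. Over all genes that fit called 0 to 3 genes per comparison.

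Leaving out a library or a replicate number gave 0 to 4 called for gag-pol, 0 to 1 for gag and 0 to 3 for NC against control. Of all genes, 422 to 2445, 22 to 731 and 367 to 2369 were called. It gave 0 to 3 for NC against gag, for NC against gag-pol and for gag-pol plus NC against gag plus control, where 342 to 3556, 0 to 533 and 2222 to 4074 of all genes were called. Among the 4 constructs it gave 0 to 6 (636 to 3590 of all genes). Among the replicate numbers it gave 1 to 4 (3674 to 9371 of all genes). For gag-pol against gag it gave 0 throughout (12 to 1849 of all genes). Fold changes that changed sign were all uncalled, and their log2 ranges follow. Against control they were -0.090 to 0.71 for *SPRY4*, -0.18 to 0.11 for *ETV5* and -0.020 to 0.16 for *DUSP16* with gag-pol, and -0.027 to 0.28 for *DUSP6*, -0.10 to 0.10 for *ETV5* and -0.086 to 0.094 for *CIC* with gag. With NC they were -0.16 to 0.24 for *DUSP5*, -0.061 to 0.00874 for *SPRY2*, -0.17 to 0.00114 for *SPRED2* and -0.14 to 0.13 for *DUSP1*. For gag-pol against gag they were -0.28 to 0.077 for *DUSP5*, -0.41 to 0.26 for *SPRY4*, -0.12 to 0.23 for *SPRED2*, -0.16 to 0.086 for *ETV4* and -0.13 to 0.078 for *ETV5*. NC against gag gave -0.13 to 0.15 for *SPRY1*, and NC against gag-pol gave -0.22 to 0.00852 for *SPRY1* and -0.22 to 0.12 for *SPRED1*. For gag-pol plus NC against gag plus control they were -0.15 to 0.084 for *DUSP5*, -0.099 to 0.20 for *DUSP6*, -0.046 to 0.082 for *SPRED1* and -0.10 to 0.075 for *SPRED2*. The other numbers of members called stayed within 1.5 times of the reported ones, and every alternative listed was run.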
